A study of Bos taurus with 38 samples.

Results

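The rumen papillae of 20 bulls were compared after re-alimentation, out of 38 samples in the series. The members were chosen by the period and feeding group in the sample titles, and no measured value was used. All were purebred Holstein Friesian bulls on one diet of 70% concentrate and 30% grass silage. The 10 RES bulls had been fed a restricted allowance for 125 days (Period 1), with a target gain of 0.6 kg per day, and were then offered the diet ad libitum for a further 55 days (Period 2). The 10 ADLIB bulls were fed ad libitum over the whole 180 days. In the study's methods, bulls were allotted to diets inside blocks of live-weight and age, and RES bulls went through a transition in which they built up to ad libitum intake, so they were not at full intake for all of the 55 days. Papillae were collected at slaughter, so the 18 bulls of Period 1 (9 RES, 9 ADLIB) were other animals. Each sample was one bull, and p-values measure the spread between bulls.

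The papillae line the rumen and carry a layered, cornified epithelium that absorbs and metabolises the volatile fatty acids released by microbial fermentation. Their size and function are known to follow the amount and fermentability of the feed. Animals that are fed freely after a restriction can grow faster than animals never restricted, which is called compensatory growth (CG). The comparison of RES with ADLIB at the end of Period 2 asks which diet difference in gene expression was left once both groups were offered the same diet ad libitum. The study reports that RES bulls then ate more per unit of body weight and grew faster. They were still lighter at the end of Period 2. Former restriction and these present differences cannot be told apart here.

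Expression was measured by mRNA sequencing and is given in CPM, the reads on a gene relative to the scaled total of its library, for each Ensembl gene. Between 6099803 and 11845091 reads per bull fell on the 12711 genes listed in Period 2, and a single read was worth between 0.0836 and 0.213 CPM. Mean depth was 8.77e+06 reads in RES and 8.98e+06 in ADLIB (permutation test, two-sided, p = 0.793). Of the 12802 identifiers listed in either period, 0 were paired with a gene symbol in the tables used here. Genes are therefore described by level and by group, 4 are given by identifier, and the defining markers of rumen epithelium were not analysed here. The tissue field of the labels names rumen epithelium, while their extraction text speaks of muscle, and the samples were taken as rumen papillae. These are bulk samples, in which fewer cells of a type and less RNA per cell cannot be told apart.

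No gene passed the test between RES and ADLIB after re-alimentation once the number of genes was taken into account. Of 12581 genes tested with limma on log2(CPM + 1), 0 (0%) passed an adjusted p of 0.05, and the smallest adjusted p was 0.919. At an unadjusted p under 0.05 there were 609 genes, 4.84% of those tested, of which 301 (2.39%) were higher and 308 (2.45%) lower in RES. Only 76 genes had a p under 0.01 and 1 had a p under 0.001. The other tools also called 0 genes. The counts at an unadjusted p under 0.05 were 574 with edgeR's quasi-likelihood test, 487 with its exact test and 624 with DESeq2. In 0 of the 12581 genes (0%) did the 10 RES values lie wholly above or wholly below the 10 ADLIB values. The number of genes at the unadjusted threshold depended on single bulls. It was 402 without ADLIB bull 5 and 972 without ADLIB bull 1, with 0 genes at an adjusted p of 0.05 in either case. With the reads scaled by library size alone, in place of the TMM factors (trimmed means of M-values, which correct for a few genes taking many reads), 694 genes were higher and 66 lower at the unadjusted threshold.

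The measured differences were small. The median size over all genes was 0.09 on the log2 scale, a 1.06-fold difference, and the middle of the signed differences lay at 0.00088. In 95% of genes the difference was at most 0.29 and in 99% at most 0.47. On the log2(CPM + 1) scale, only 55 genes differed by more than 1.5-fold and 10 by more than 2-fold, in either direction. That scale understates the fold difference of low genes, so some of them can differ by more in CPM than is counted here. For comparison, the same fit at the end of Period 1, with 9 bulls a group, gave 201 genes over 1.5-fold and 39 over 2-fold. Mean depth in Period 1 was 8.73e+06 reads in RES and 1.01e+07 in ADLIB, and the part of depth in these counts was not tested. The Period 1 fit had 1166 genes at an unadjusted p under 0.05 (9.23%) and 1 gene at an adjusted p under 0.05. The median standard error was 0.12 in Period 2 and 0.11 in Period 1.

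A p-value above the threshold does not show that a gene was the same in both groups, so the size of difference that the spread between bulls still allowed was computed for each gene. The 95% interval of a gene's log2 fold change had a median half-width of 0.24, or 1.18-fold, with 0.16 at percentile 10 and 0.39 at percentile 90. A difference of a given size was taken as excluded when the whole interval lay inside that size in both directions. A 1.2-fold difference was excluded in 3267 genes (26.0%), a 1.5-fold difference in 11363 (90.3%), and a 2-fold difference in 12432 (98.8%). A 3-fold difference was not excluded in 36 genes and a 4-fold difference in 14. The plot of bounds shows how fast the share of genes rose between those sizes.

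**Figure D1:**
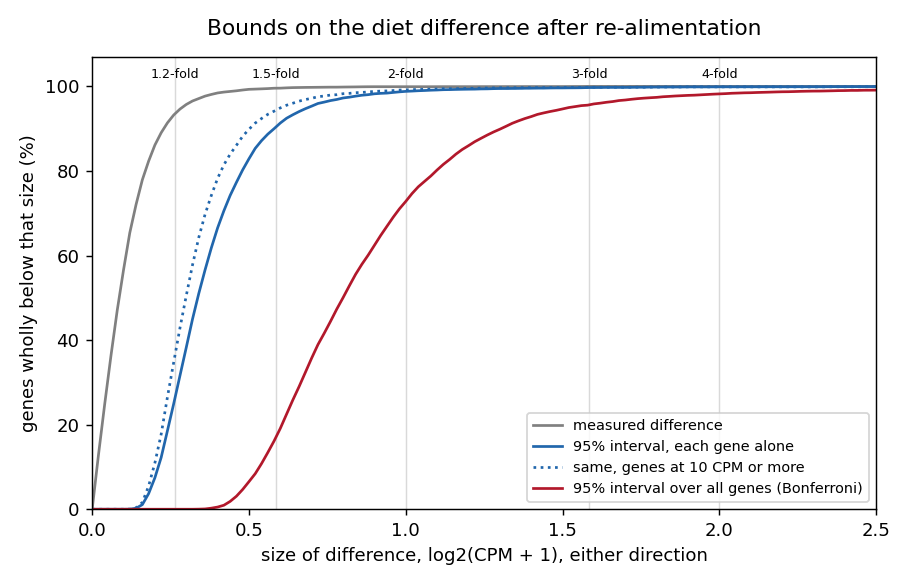
Share of genes (vertical axis, percent of 12581 genes, or of 8480 for the dotted line) whose Period 2 diet difference lay wholly below the size on the horizontal axis (log2 scale, fold sizes marked above). The grey line counts the measured difference, the blue lines the 95% interval of each gene alone, and the red line an interval widened for all genes; at 1.5-fold the solid blue line stands at 90.3% and the red line at 16.8%.

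Each interval above covers a single gene. When the intervals were widened so that all 12581 held together (Bonferroni), a 1.2-fold difference was excluded in 0 genes, a 1.5-fold difference in 2116 (16.8%), a 2-fold difference in 9158 (72.8%) and a 4-fold difference in 12357 (98.2%). A pair of one-sided tests per gene against the same sizes, with Benjamini-Hochberg adjustment, placed 11774 genes (93.6%) within 1.5-fold and 12483 (99.2%) within 2-fold. That test placed 0 genes within 1.2-fold. A pseudocount of 1 understates the fold difference of low genes. With a pseudocount of 0.1, a 1.5-fold difference was excluded in 10176 genes and a 2-fold difference in 12135, and with DESeq2 in 10236 and 12181.

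Bounds were tighter for well expressed genes, though not for the 100 most abundant genes at 1.2-fold and 1.5-fold, given below. Among the 8480 genes with a mean of 10 CPM or more, 1.5-fold was excluded in 7995 (94.3%) and 2-fold in 8410 (99.2%). In the 3146 genes with the lowest means, from 0.945 to 6.87 CPM, the median half-width was 0.32 and 1.5-fold was excluded in 80.5% on the log2(CPM + 1) scale. With a pseudocount of 0.1, which shrinks low genes less, 1.5-fold was excluded in only 47.1% of these genes and 2-fold in 89.4%. In the 3145 genes with the highest means, from 50.01 CPM upward, the median half-width was 0.20, and 1.5-fold was excluded in 94.5% with a pseudocount of 1 and in 94.3% with 0.1. A 1.5-fold difference was not excluded in 1218 genes. The interval reached that size upward, with RES the higher, in 723 of them and downward in 573, and in some it reached both.

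The 36 genes in which a 3-fold difference was not excluded varied widely between bulls. This follows from how they were chosen, as a wide spread between bulls widens the interval. Their mean levels ran from 2.45 to 574 CPM. The distance between the highest and lowest of the 20 bulls had a median of 5.43 on the log2 scale, or 43.2-fold. Over all genes tested this distance was 1.02, or 2.02-fold. An unadjusted p under 0.05 was reached by 5 of the 36 (13.9%), beside 4.84% of all genes tested. A large difference also brings a gene into this set, so that share is no independent result.

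The gene with the smallest p was ENSBTAG00000012112. Its level in RES ran from 4.46 to 7.66 CPM with a median of 5.32, and in ADLIB from 1.71 to 5.25 CPM with a median of 3.34. All 10 RES bulls lay above the ADLIB median and 6 lay above every ADLIB bull, but the groups overlapped. The log2 fold change was 0.56 (SE 0.14, 95% interval 0.27 to 0.85), with p = 0.000571 and adjusted p = 0.919 (limma). It was a low gene, read between 8 and 91 times per bull. At the end of Period 1, with n = 9 a group, its mean was 4.84 ± 1.04 CPM (SD) in RES and 4.40 ± 1.17 in ADLIB, a log2 fold change of 0.12 (SE 0.13).

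ENSBTAG00000022489 was the next of the genes that were higher in RES. RES values ran from 12.2 to 36.0 CPM with a median of 14.6, and ADLIB values from 6.55 to 19.4 CPM with a median of 9.50. RES bull 3 stood apart at 36.0 CPM. All 10 RES bulls lay above the ADLIB median, but only 2 lay above every ADLIB bull. The log2 fold change was 0.63 (SE 0.18, 95% interval 0.26 to 1.00, unadjusted p = 0.0018, adjusted p = 0.919 from limma) and 0.51 without RES bull 3. Means at the end of Period 1 were 16.6 ± 5.77 CPM (SD, n = 9) in RES and 13.1 ± 5.19 in ADLIB.

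Of the genes that were lower in RES, ENSBTAG00000004832 had the smallest p. RES values ran from 47.5 to 91.8 CPM with a median of 60.5, and ADLIB values from 71.5 to 112 CPM with a median of 84.6. There were 9 RES bulls below the ADLIB median and 7 below every ADLIB bull. The log2 fold change was -0.45 (SE 0.12, 95% interval -0.71 to -0.20, unadjusted p = 0.00109, adjusted p = 0.919 from limma). In Period 1 the means were 89.4 ± 22.3 CPM (SD, n = 9) in RES and 85.6 ± 21.7 in ADLIB.

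ENSBTAG00000009359 followed it. RES values ran from 213 to 323 CPM with a median of 239, and ADLIB values from 214 to 502 CPM with a median of 360. All 10 RES bulls lay below the ADLIB median, but the lowest ADLIB bull lay among the lowest RES bulls and only 1 RES bull was below it. The log2 fold change was -0.46 (SE 0.13, 95% interval -0.72 to -0.20, unadjusted p = 0.00115, adjusted p = 0.919 from limma). Period 1 means were 248 ± 28.8 CPM (SD, n = 9) in RES and 279 ± 51.2 in ADLIB.

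**Figure D2:**
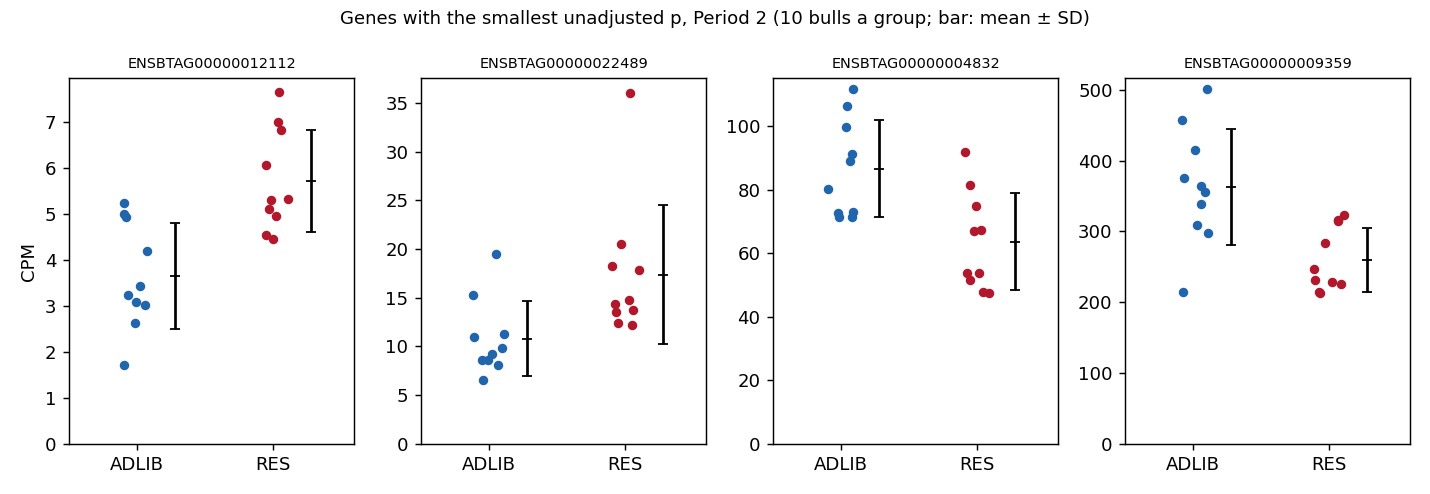
Level in CPM (vertical axes, from 0) of 4 genes in each of the 10 ADLIB (blue) and 10 RES (red) bulls of Period 2, with the mean and SD beside the points. RES lies mostly above ADLIB in the left pair and mostly below it in the right pair, and the groups overlap in all 4 panels.

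These 4 genes head the ranking by p in each direction, and the next genes of that ranking are given with them. The 8 genes with the smallest p among those higher in RES had p-values from 0.000571 to 0.00369, sizes from 0.35 to 0.63 on the log2 scale and mean levels from 2.24 to 37.8 CPM. The 8 among those lower in RES had p-values from 0.00109 to 0.00252, sizes from 0.29 to 1.51 and mean levels from 3.64 to 311 CPM. RES and ADLIB overlapped in all 16, and their smallest adjusted p was 0.919.

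The largest fold differences belonged to other genes. Among the 5 genes that were highest in RES by fold, log2 fold changes ran from 0.85 to 1.57, and in the 5 that were lowest from -1.72 to -1.12. An unadjusted p under 0.05 was reached by 1 gene in each set of 5, beside 4.84% of all genes tested. The sets were chosen by size in the same bulls, which favours a small p, so these counts are no independent result. The gene at -1.72 ranged from 1.07 to 183 CPM in RES (median 3.39) and from 2.62 to 576 CPM in ADLIB (median 77.0), with a 95% interval of -3.80 to 0.36. Single bulls carried much of the total. For that gene the highest RES bull held 45.1% of the summed CPM of its group and the highest ADLIB bull 46.7%. The gene at 1.57 ran from 0.775 to 214 CPM in RES (median 63.7) and from 0.375 to 190 CPM in ADLIB (median 35.2), with an interval of -0.50 to 3.64. High and low bulls were thus found in both groups for both genes.

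A pair of genes in those sets had narrower intervals. The gene at -1.51 ran from 0.332 to 4.93 CPM in RES (median 1.91) and from 0.824 to 32.2 CPM in ADLIB (median 6.71), with an interval of -2.36 to -0.67 and an unadjusted p of 0.00117 (adjusted p = 0.919, limma). The gene at 1.30 ran from 1.01 to 17.2 CPM in RES (median 9.77) and from 0.114 to 10.9 CPM in ADLIB (median 4.32), with an interval of 0.37 to 2.23. Their lowest values, 0.332 and 0.114 CPM, were worth few reads, as 3 reads were worth between 0.251 and 0.640 CPM and a single read at least 0.0836 CPM. In Period 1 their log2 fold changes were 0.67 (SE 0.51) and 0.11 (SE 0.42).

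With TMM scaling, genes of low and of high level leaned in different directions. In the same 3146 genes with the lowest means the median log2 fold change was 0.05. At the unadjusted threshold there were 174 of them (5.53%, beside 4.84% of all genes), 132 higher and 42 lower in RES. In the 3145 with the highest means the median was -0.05, and 200 genes (6.36%) reached that threshold, 27 higher and 173 lower. Scaled by library size alone, both medians were above 0, at 0.11 and 0.04. At the unadjusted threshold 228 of the low genes were then higher and 20 lower (7.88% together), beside 6.04% of all genes. Of the high genes, 99 were higher and 29 lower (4.07% together). Without ADLIB bull 5, with TMM scaling, the high genes gave 15 higher and 90 lower (3.34% together), beside 3.16% of all genes. Among the 100 genes with the highest mean over all 20 bulls, which took 39.3% of the reads, 91 were lower and 9 higher in RES, with a median log2 fold change of -0.16. The median over all genes tested was 0.00088. Of those 100 genes, 7 (7%) had an unadjusted p under 0.05, beside 4.84% of all genes. Without ADLIB bull 5 there were 3 (3%), beside 3.16% of all genes, and by library size alone 3 (3%), beside 6.04%. With all bulls and TMM scaling, a 2-fold difference was excluded in all 100, beside 98.8% of all genes. Smaller sizes were excluded less often than over all genes. A 1.5-fold difference was excluded in 81 (81%), beside 90.3% of all genes, and a 1.2-fold difference in 4 (4%), beside 26.0%. The gene with the highest level of all had a mean of 73247 CPM in RES and 82213 CPM in ADLIB, with a log2 fold change of -0.09 (SE 0.28).

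**Figure D3:**
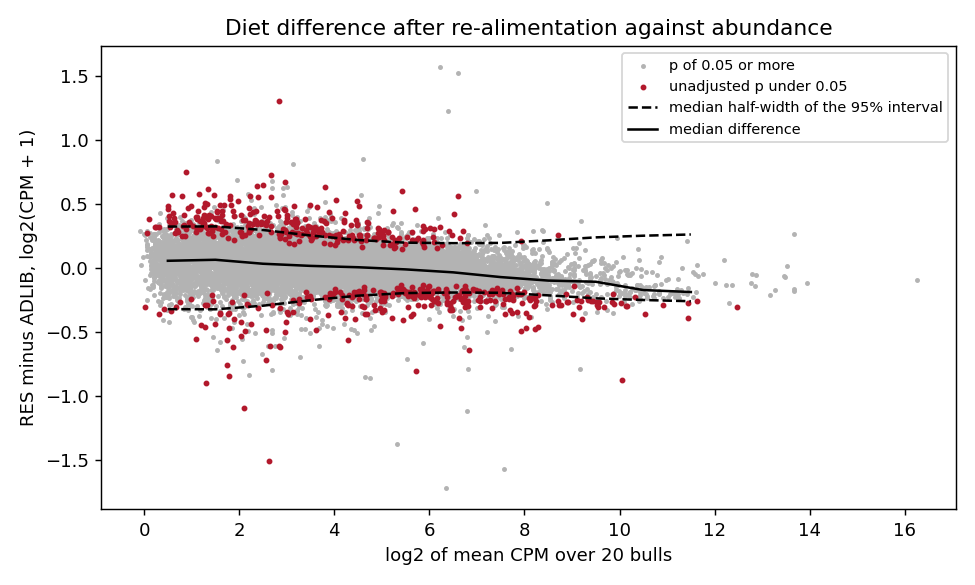
Log2 fold change of RES against ADLIB in Period 2 (vertical axis) against the log2 of mean CPM (horizontal axis), 1 point a gene, with genes at an unadjusted p under 0.05 in red. The solid line is the median difference and the dashed lines the median half-width of the 95% interval in bins of 1 log2 unit; the solid line falls with abundance, from above 0 to below it with TMM scaling, and stays inside the dashed lines.

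The count of abundant genes that were lower in RES moved with single bulls and, most, with scaling by library size alone. It was 91 of 100 with RLE scaling, 88 with upper quartile scaling and 82 to 92 with single bulls left out. The 100 genes took from 36.7% to 40.8% of the reads in RES (mean 38.7, SD 1.18, n = 10) and from 35.2% to 47.7% in ADLIB (mean 40.0, SD 3.83, n = 10). RES bulls lay inside the range of ADLIB bulls, and the means did not differ beyond this spread (two-sided permutation test, p = 0.341, or 0.793 after adjustment over 7 measures per bull). ADLIB bull 5 held the highest share and the lowest TMM factor, 0.757 against 0.901 to 1.12 in the other ADLIB bulls and 1.00 to 1.09 in RES. Without that bull, 82 of the 100 genes were lower in RES and the median was -0.10, and without ADLIB bull 8 there were also 82. Scaled by library size alone, 72 were lower, while 74.5% of all genes were higher in RES and the median of all genes was 0.08. Library identifiers carry a digit from 1 to 4. The mean share was lower in RES within digits 1 and 3 and higher within digits 2 and 4. In digit 1 the means were 38.1% in RES (n = 3) and 44.4% in ADLIB (n = 2), and in digit 2 they were 38.4% (n = 3) and 36.4% (n = 2). In digit 3 they were 38.8% (n = 3) and 40.9% (n = 2). Digit 4 held a single RES bull, at 40.8%, beside a mean of 39.1% in 4 ADLIB bulls. The digits were thus not evenly shared between the diets, and in Period 1 they were not either. Depth also differed between the digits. Its median in ADLIB was 6.28e+06 reads in digit 1 and 1.07e+07 in digit 4. In RES it was 6.57e+06 in digit 1, and the bull of digit 4 had 1.18e+07. The meaning of that digit is not given in the sources used here, and its part in the result was not tested beyond these values. In Period 1, 81 of the same 100 genes were lower in RES, with a median of -0.08.

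**Figure D4:**
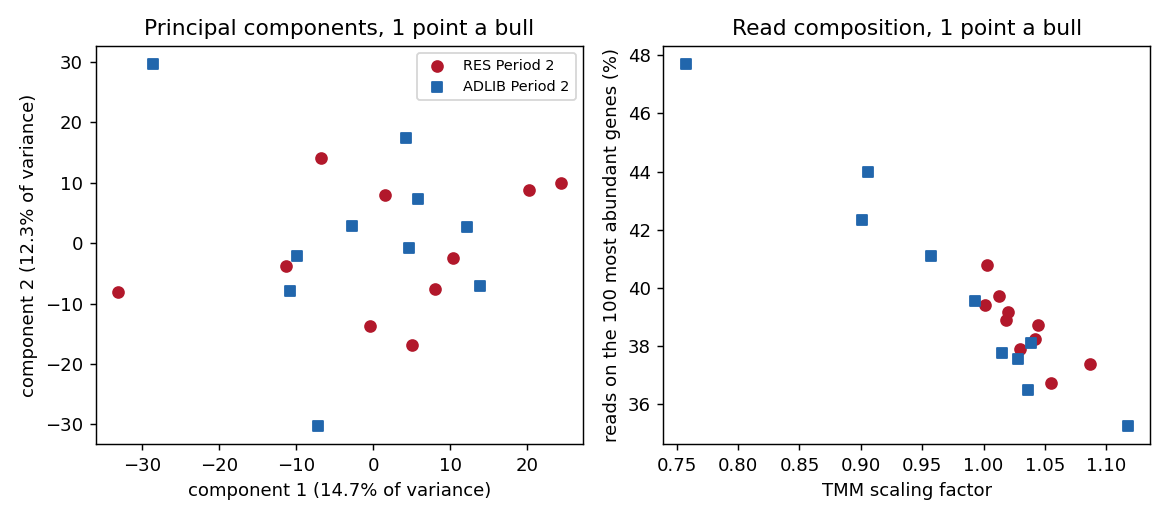
Left, the first and second principal components of log2(CPM + 1) for the 20 bulls of Period 2, RES as red circles and ADLIB as blue squares. Right, percent of reads on the 100 most abundant genes (vertical axis) against the TMM factor (horizontal axis); ADLIB bull 5 is the point at 47.7% and 0.757, and the RES bulls lie between 36.7% and 40.8%.

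The bulls did not separate by former diet on the leading components. The first component held 14.7% of the variance and the second 12.3%, and RES and ADLIB overlapped on both (permutation tests, two-sided, p = 0.594 and 0.711, adjusted p = 0.793 for each). The distance of a bull from its group mean was also compared. The root mean square deviation over genes was 0.344 ± 0.041 (SD, n = 10) in RES and 0.359 ± 0.064 in ADLIB (permutation test, two-sided, p = 0.556). The standard deviation of a gene between bulls had a median of 0.25 in RES and 0.27 in ADLIB, and it was larger in RES for 42.2% of genes. Of the 12711 listed genes, RES bulls had reads on 12703 to 12711 and ADLIB bulls on 12696 to 12710 (two-sided permutation test, p = 0.0488, or 0.341 after adjustment for the 7 measures).

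What was left of the Period 1 diet difference was followed gene by gene in the Period 2 bulls. Of the 1166 genes with an unadjusted p under 0.05 in Period 1, 1148 were tested in Period 2. Their direction was the same in 767 (66.8%) and opposite in 381. Over all 12484 genes tested in both periods the share was 57.4%. The median size of the chosen genes was 0.31 in Period 1. Taken in the Period 1 direction, their median difference in Period 2 was 0.06, and it was 0.02 over all genes. An unadjusted p under 0.05 in Period 2 was reached by 58 of them (5.05%), 42 in the same direction and 16 in the opposite one. That share is near the 4.84% of all genes tested. With the library digit in the fit of both periods, the same-direction share was 57.7% for the chosen genes and 53.7% for all genes.

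**Figure D5:**
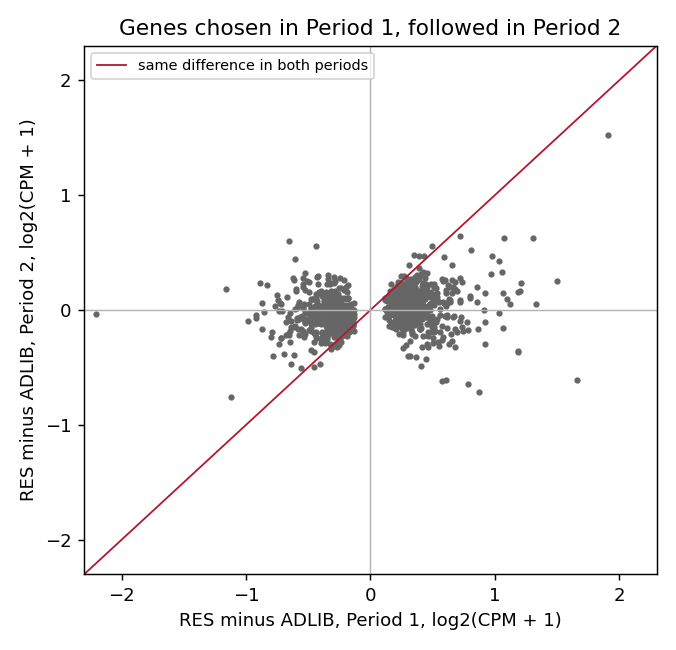
Log2 fold change of RES against ADLIB in Period 2 (vertical axis) against that in Period 1 (horizontal axis) for the 1148 genes chosen in Period 1 at an unadjusted p under 0.05. The red line marks the same difference in both periods, and 767 genes lie on the same side of 0 in both periods and 381 on opposite sides.

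The same was computed for the genes with the smallest p in Period 1. Of 66 genes at an unadjusted p under 0.001 in Period 1 (0.523%), 63 were tested in Period 2, and 36 (57.1%) had the same direction. Their median size was 0.58 in Period 1 and 0.03 in the same direction in Period 2. For 53 of the 63 (84.1%), the Period 2 interval lay below the size measured in Period 1. Of 40 genes that edgeR's exact test called in Period 1 (0.317%), 39 were tested in Period 2. They had a median size of 0.68 in Period 1 and 0.01 in Period 2, and 32 of the 39 (82.1%) had a Period 2 interval below the Period 1 size. Over the 1148 genes this held for 571 (49.7%), and over all 12484 genes tested in both periods for 1843 (14.8%). These counts take the Period 1 size as measured and leave out its own error. In the direct test of the change between the periods, given below, 2 of the 63 genes and 2 of the 39 passed after adjustment. Over all 12543 genes in that test, 3 (0.0239%) passed. That test uses the Period 1 values that chose the genes, so these 2 counts are no independent result. Sizes of genes chosen by their p in Period 1 run high by that choice.

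Of the 10 genes with the largest fold differences in Period 2, 6 had the same direction in Period 1 and 4 the opposite one. Over all genes tested in both periods, 57.4% had the same direction. Sizes in the 4 were 0.42 to 0.78 in Period 1, with SE from 0.51 to 1.08. Of the 10, 1 had an unadjusted p under 0.05 in Period 1, beside 9.23% of all genes. The gene at 1.52 in Period 2 ran from 6.40 to 629 CPM in RES (median 45.9) and from 1.02 to 447 CPM in ADLIB (median 22.1). Its log2 fold change was 1.91 (SE 0.87) in Period 1 and its standard error in Period 2 was 0.84. The gene at -1.72 in Period 2 stood at -1.83 (SE 1.00) in Period 1, while the gene at 1.57 stood at -0.78 (SE 1.08). The intervals of all 3 genes in Period 2 held 0.

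The change of the diet difference between the periods was tested directly, as the difference in Period 2 minus that in Period 1. Of 12543 genes listed in both periods, 3 passed an adjusted p of 0.05 (0.0239%), and 600 had an unadjusted p under 0.05 (4.78%). For the first gene the log2 fold change was 0.57 (SE 0.12) in Period 1 and -0.62 (SE 0.17) in Period 2. It ran from 4.01 to 7.35 CPM in RES and from 2.19 to 4.14 in ADLIB in Period 1, and from 1.44 to 3.76 in RES and from 2.39 to 10.1 in ADLIB in Period 2. The groups overlapped in both periods, RES being mostly the higher in Period 1 and mostly the lower in Period 2. The interaction was -1.19 (95% interval -1.63 to -0.76, adjusted p = 0.0289 from limma).

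The second gene ran the other way. Its log2 fold change was -0.61 (SE 0.16) in Period 1 and 0.45 (SE 0.13) in Period 2, with an interaction of 1.05 (adjusted p = 0.0422 from limma). RES medians were 2.11 CPM in Period 1 and 3.70 in Period 2, and ADLIB medians 3.76 and 2.34.

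The third gene lost a Period 1 difference. Its RES values had a median of 4.80 CPM in Period 1, with the highest at 6.52, and a median of 1.71 CPM in Period 2, with the highest at 2.73. ADLIB values ran from 0.666 to 2.41 CPM in Period 1 and from 0.655 to 3.02 CPM in Period 2. In Period 1 every RES bull lay above every ADLIB bull, and in Period 2 the RES values lay inside the ADLIB range. The log2 fold change was 1.13 (SE 0.16) in Period 1 and 0.05 (SE 0.14, 95% interval -0.24 to 0.33) in Period 2. The interaction was -1.08 (adjusted p = 0.0422 from limma). This was the 1 gene at an adjusted p under 0.05 in the Period 1 comparison. All 3 genes are low, and the 3 calls were not stable. There were 0 calls with the library digit in the fit, 1 with a pseudocount of 0.1, and between 0 and 4 when single bulls were left out, with 0 or 1 call on leaving out 24 of the 38 bulls. The 4 genes given by identifier had adjusted p-values of 0.998 in this test.

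A further 168 genes were listed in Period 2 and not in Period 1, and 95 of them were tested. They were low genes, with mean levels from 0.945 to 5.55 CPM. Of the 95, 57 were higher and 38 lower in RES, with a median log2 fold change of 0.04, and 7 (7.37%) had an unadjusted p under 0.05, beside 4.84% of all genes. On the log2(CPM + 1) scale the interval lay within 1 log2 unit in 88 of them (92.6%), but for genes this low that scale shrinks a fold difference. With a pseudocount of 0.1, a 2-fold difference was excluded in 53 of the 95 (55.8%).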

How the data were processed

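RNA-seq libraries of rumen papillae from 20 bulls of Period 2 (10 RES, 10 ADLIB) were analysed, with 18 bulls of Period 1 for comparison. Groups were taken from the sample titles. Per the study's methods, the authors trimmed single-end reads, aligned them to UMD3.1 with TopHat and Bowtie2, counted them with HTSeq on Ensembl genes and removed genes with low counts. The submitters' processing notes list CASAVA 1.4, Bowtie, SAMtools, HTSeq and edgeR. The authors deposited one signal value per gene and sample, which was found to be CPM on the TMM-scaled library size. All values were whole multiples of the worth of 1 read within 0.01 read, so whole reads were recovered, and TMM factors over the 20 bulls gave the deposited scale to within a relative difference of 4.5e-09. Alignment, filtering and scaling are therefore already part of the values.

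Genes were kept by filterByExpr and tested with limma 3.58.1 (lmFit, eBayes with a trend) on log2(CPM + 1), scaled by TMM in edgeR 4.0.16, in R 4.3.3, two-sided, with Benjamini-Hochberg adjustment. Log2 values are on the log2(CPM + 1) scale, which understates the change of low genes. Intervals are 95% intervals from the moderated standard errors. edgeR and DESeq2 1.42.0 were run on recovered reads. Single values per bull were compared by permutation of the difference in means (100000 resamples, scipy 1.17.1 in Python 3.11.15). The scripts were tested on simulated counts.

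Alternatives were RLE scaling, another pseudocount, other filters, no trend, robust estimation, voom, all 4 groups in 1 fit, the library digit, the replicate block, other tools, other interval levels and leaving out each bull. Scaling by library size or upper quartile, the values by gene level under another pseudocount or scaling, the exact test without a filter, and leaving out bulls for the interaction and for the 100 abundant genes were added after seeing the data. The comparison, the lists and the tests were chosen with earlier results of these data known. The genes named were to be the 8 per direction with the smallest p, the 5 with the largest fold change, genes past the interaction threshold, any gene called by another tool, and members of 19 gene lists. As 0 identifiers were paired with symbols, the lists could not be applied, and 2 identifiers per direction are printed.

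Depth was from 6099803 to 11845091 reads per bull in Period 2, and 3 reads correspond to 0.251 to 0.640 CPM. Depth limits cover counting error only.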

Additional observations from a re-analysis of the deposited data

Results flagged for a closer look

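In 24 combinations of 12 measures with the RES or ADLIB group of Period 2, 3 bulls lay far from the rest of their group by Dixon's criterion for 10 samples. Chance flags about 1 in 20 groups. ADLIB bull 5 had reads on 12696 of the listed genes, and the next ADLIB bull on 12704. RES bull 1 had reads on 12703 genes, and the next RES bull on 12707. For ENSBTAG00000022489, RES bull 3 stood at 36.0 CPM, and the gap to the next RES bull was 0.653 of the range of the group.

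The diet difference differed between Period 1 and Period 2 for 3 low genes in the interaction test (limma, adjusted p = 0.0289, 0.0422 and 0.0422). The differences of the 2 log2 fold changes were -1.19, 1.05 and -1.08. There were 0 such genes with the library digit or the replicate block in the fit, and 1 with a pseudocount of 0.1.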

How the results depend on the processing

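The count of genes at an adjusted p of 0.05 in Period 2 was 0 under every alternative run, and the count at an unadjusted p under 0.05 was between 487 and 760 over 15 alternatives. Leaving out each bull of Period 2 moved the latter from 402 to 972, as given above. The number of genes that excluded a 1.5-fold difference ran from 11127 to 11412 and that for 2-fold from 12428 to 12471 when bulls were left out. It fell beyond 1.5 times only with the Bonferroni interval, to 2116 for 1.5-fold. The 3 interaction calls became 1 with a pseudocount of 0.1, 0 with the library digit and 0 with the replicate block, and 0 to 4 over single bulls left out; there were 2 with edgeR's quasi-likelihood test. The share of Period 1 genes with the same direction in Period 2 was 53.8% for genes from the exact test, 57.1% for those at p under 0.001, 57.7% with the library digit, 72.2% by library size alone (62.0% over all genes) and 61.4% to 70.9% with single bulls left out. The cause of these changes was not tested. The difference in mean reads, RES minus ADLIB, was -210872 over all bulls and 1701461 within library digit 2. The 4 identified genes kept their direction under 35 alternatives each. They were chosen by their p in the same bulls, so a kept direction follows from that choice and adds no support.

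Replicate numbers in the titles are shared between RES and ADLIB. Deviations of same-numbered bulls from their group means correlated at -0.27 to 0.26 (10 pairs, mean -0.0033), 2 pairs were over 0.1, and 1 bull correlated best with its own number, so the numbers were not taken to pair the bulls. With the replicate block, the Period 2 comparison gave 0 genes at an adjusted p of 0.05, 615 at an unadjusted p under 0.05, and 11382 and 12445 genes that excluded 1.5-fold and 2-fold.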
